A study of Kluyveromyces lactis with 8 samples.

Results

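The genes nearest the chromosome ends of the milk yeast Kluyveromyces lactis were followed end by end in 4 strains. Gene identifiers were ordered within each of the 6 chromosome letters, A to F, by the number they carry. The first 20 and the last 20 identifiers of each letter were taken, which gave 240 of 5076 genes at 12 ends. The end with the lowest numbers of a letter is called its low end (A-low) and the other its high end (A-high), and rank 1 is the outermost gene. For all 6 letters this order followed the gene order of the RefSeq table (assembly ASM251v1).

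RNA was sequenced from strains lacking SIR2 (sir2∆, genotype MATa sir2∆ hmr∆ hml∆), SIR4 (sir4∆, MATa sir4∆ hmr∆ hml∆) or SUM1 (sum1∆, MATa sum1∆ hmr∆ hml∆), and from a wild-type strain (WT, MATa SIR2 hmr∆ hml∆). All 4 strains therefore carry the a mating type and lack both silent mating cassettes, and each group is 1 strain. Cells were harvested in early log phase after growth at 30 °C in YPD, a rich glucose medium. Each group has 2 libraries that the series design calls technical replicates, so the p-values measure only the spread between these libraries. In bulk RNA, more cells with a transcript and more transcript per cell cannot be told apart.

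Yeast chromosomes end in telomeric repeats, and the genes beside them often belong to families with members at several ends. Sir2 is a deacetylase that uses NAD to remove acetyl groups from histones. In Saccharomyces cerevisiae it acts with Sir3 and Sir4 to silence telomere-proximal genes and the silent mating cassettes. Sum1 is a DNA-binding repressor which, in S. cerevisiae, recruits the Sir2 relative Hst1 to mid-sporulation genes. K. lactis has 1 deacetylase in place of that pair.

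Estimated reads assigned to genes ran between 10.1 and 26.2 M per library. Both sum1∆ libraries were deep (21.7 and 26.2 M) and both sir4∆ libraries were shallow (10.6 and 11.5 M), while sir2∆ (10.1 and 21.2 M) and WT (21.7 and 11.8 M) had 1 of each kind. SUM1 had a value of 0 in sum1∆ replicates 1 and 2, against 31.2 and 28.0 FPKM in WT. SIR2 and SIR4 could not be found by symbol. An unnamed gene picked for its values, KLLA0F14663g, had 0.0513 and 0 FPKM in sir2∆, against 73.2 and 71.0 FPKM in WT. Since it was picked for that pattern it does not check the sir2∆ label, and the sir4∆ label was not checked.

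Genes without reads in any strain were frequent at the chromosome ends, though not at every end. Levels are given in FPKM, a fragment count scaled for gene length and library depth. Of the 240 end genes, 36 were listed at 0 in all 8 libraries, against 10 of the other 4836 genes. The 36 include HMLALPHA1 and HMLALPHA2 at C-low, genes of a silent cassette that the genotypes give as deleted, so their 0 follows from the strains used. They also include a stretch at B-high, and whether it belongs to the other deleted cassette was not tested. The contrast was not recomputed without these genes. Another 8 end genes had at most 3 reads in any library. These 44 genes had a mean below 1 FPKM over the 8 libraries and were not tested, which left 196 tested end genes.

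Most of the genes without reads stood in stretches that recur from end to end. At A-low, B-low, C-low, D-low, D-high, E-low and F-low, 33 genes formed runs in which the same coding lengths followed each other in the same order. Coding lengths of 1047 bases (5 genes), 1524 bases (7 genes), 219 bases (5 genes) and 441 bases (6 genes) made up most of these runs. Of the 33 genes, 25 were listed at 0 in all libraries and 4 were tested. Their sequences were not compared here, and reads of near-identical copies cannot be assigned to 1 copy, so the values of these genes are uncertain.

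A single gene of the 1524-base length carried signal in any strain at 1 FPKM or more: KLLA0A00132g, at rank 2 of A-low. Likewise KLLA0D00187g, at rank 3 of D-low, was the 1 tested gene of the 441-base length. The other tested members of the runs were KLLA0E00221g and KLLA0F00242g, both with a coding length of 1269 bases and both at rank 5 of their ends. The first tested gene stood at rank 1 at A-high, C-high, E-high and F-high, at rank 2 at A-low and B-high, and at rank 3 at D-low. It stood at rank 5 at C-low, E-low and F-low, at rank 6 at D-high and at rank 7 at B-low.

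Genes outside the runs were also listed at 0. KLLA0C00330g to KLLA0C00396g, at ranks 11 to 14 of C-low, include HMLALPHA1 and HMLALPHA2, the alpha genes of the silent cassette that the genotypes give as deleted. KLLA0B14597g to KLLA0B14531g, at ranks 15 to 18 of B-high and without symbols, were likewise at 0 in all 8 libraries. KLLA0B14531g has the same coding length, 333 bases, as KLLA0C00330g. The genotypes give the other silent cassette (hmr∆) as deleted too, and whether these B-high genes belong to it was not tested. KLLA0B00187g at rank 3 of B-low and KLLA0D00258g and KLLA0D00269g at ranks 7 and 9 of D-low were also at 0.

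The median level was lowest at ranks 1 to 5 and highest at ranks 16 to 20 in all 8 libraries. At ranks 1 to 5 the median over 60 genes was 2.46 and 3.17 FPKM in sir2∆, 0.0809 and 0.0361 FPKM in sir4∆, 0.186 and 0.0654 FPKM in sum1∆, and 0.126 and 0.0667 FPKM in WT. The sir2∆ libraries were the highest in this outermost group, although exactly 50% of its genes were not tested, so its median sits at the edge between genes with and without signal. The number of genes under 1 FPKM there was 30 and 30 in sir2∆, 31 and 31 in sir4∆, 32 and 32 in sum1∆, and 31 and 32 in WT.

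At ranks 6 to 10 the medians had already reached 33.1 and 30.6 FPKM in sir2∆, 31.0 and 34.1 FPKM in sir4∆, 28.8 and 29.8 FPKM in sum1∆, and 25.7 and 31.1 FPKM in WT. At ranks 11 to 15 they were 50.04 and 47.9 FPKM in sir2∆, 40.1 and 38.2 FPKM in sir4∆, 46.7 and 45.99 FPKM in sum1∆, and 36.1 and 39.1 FPKM in WT. At ranks 16 to 20 they were 82.9 and 81.1 FPKM in sir2∆, 72.7 and 74.0 FPKM in sir4∆, 80.1 and 77.3 FPKM in sum1∆, and 75.3 and 78.3 FPKM in WT. These were the highest medians of any range of ranks, in each of the 8 libraries. At ranks 21 to 40 they were lower again, with 59.8 and 59.0 FPKM in sir2∆, 56.6 and 57.0 FPKM in sir4∆, 68.2 and 66.9 FPKM in sum1∆, and 60.4 and 61.6 FPKM in WT. Beyond rank 40 the medians lay between 62.8 and 69.3 FPKM in the 8 libraries, and 0.218% of the genes were not tested. The outermost genes were also the least annotated: 8.33% had a symbol at ranks 1 to 5 and 60% at ranks 16 to 20, against 80.4% at ranks 21 to 40.

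**Figure D1:**
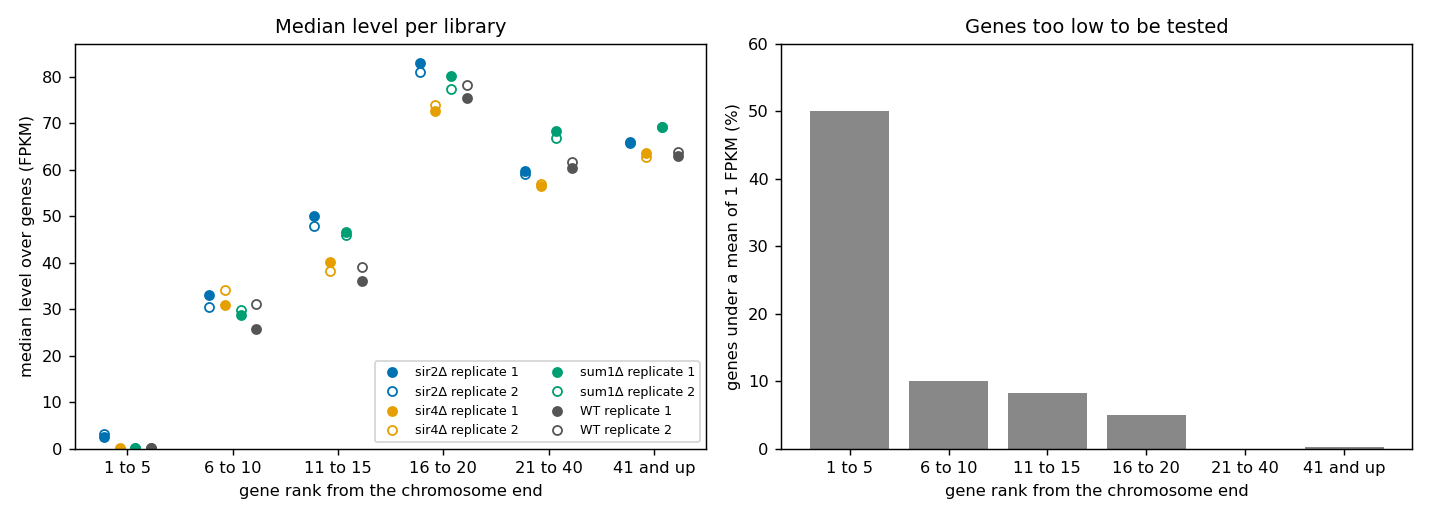
Level of genes by distance from the chromosome end. The left panel gives the median FPKM of the genes at each range of ranks in each library, filled for replicate 1 and open for replicate 2. The right panel gives the percentage of genes that were not tested, which was 50% at ranks 1 to 5 and 0.218% beyond rank 40. At ranks 11 to 20 the genes not tested were those of the stretches at C-low and B-high listed at 0. The C-low stretch includes genes of a deleted silent cassette. In all libraries the medians climb from ranks 1 to 5 to ranks 16 to 20 and are lower at ranks 21 to 40.

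The 12 ends differed in their median level more than the strains did at a given end. A-high had the highest medians over its 20 genes, with 95.5 and 86.1 FPKM in sir2∆, 118 and 101 FPKM in sir4∆, 83.8 and 83.5 FPKM in sum1∆, and 83.2 and 87.2 FPKM in WT. D-low, where 45% of genes were not tested, had the lowest, with 10.5 and 10.6 FPKM in sir2∆, 10.4 and 11.5 FPKM in sir4∆, 7.22 and 7.84 FPKM in sum1∆, and 8.55 and 9.93 FPKM in WT. All genes were tested at A-high, C-high, E-high and F-high.

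Differences between strains are log2 differences of FPKM + 1, mutant minus WT, a scale that compresses changes at low levels. Genes counted as called higher or lower had an absolute log2 difference of at least 1 and an adjusted p below 0.05 in limma, which was fitted and adjusted over all 5022 genes tested. Of the 196 tested end genes, 24 were higher and 2 lower in sir2∆, where 4.9% of all tested genes were called higher and 0.717% lower. In sir4∆, 3 end genes were higher and 5 lower, against 0.617% and 0.737% of all genes. In sum1∆, 20 were higher and 17 lower, against 7.73% and 2.87% of all genes.

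The median log2 difference of the tested end genes was 0.05 in sir2∆, 0.04 in sir4∆ and -0.07 in sum1∆, beside -0.01 for all genes in each of the 3 comparisons. Most tested end genes were not called, and the calls were single genes or short runs of neighbours. After quantile normalization the sir2∆ median was -0.05 for the end genes and -0.08 for all genes. The balance of calls moved with that scaling for the end genes and for all genes alike. In sir2∆, 79.2% of the called end genes were then higher (19 higher and 5 lower), against 92.3% before it, and of all called genes 68.3%, against 87.2%. In sum1∆, 40% of the called end genes were then higher (18 higher and 27 lower), against 54.1% before it, and of all called genes 61.1%, against 72.9%. Single libraries moved the smaller counts. Without sir4∆ replicate 1, 3 genes were lower in sir4∆, and without sir4∆ replicate 2, 8 were lower and 5 higher. Without WT replicate 2, 6 were higher in sir4∆, and without WT replicate 1, 1 was lower in sir2∆.

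By distance, ranks 1 to 5 held the largest share of calls in sir2∆ and sum1∆, and ranks 6 to 10 in sir4∆. The ends did not contribute evenly to ranks 1 to 5. The first tested gene stood at rank 1 at A-high, C-high, E-high and F-high, but at rank 6 at D-high and rank 7 at B-low. All genes lower in sum1∆ at ranks 1 to 5 stood at B-high, C-high, E-high or F-high. Distance and end were therefore not told apart. Of the 30 tested genes at ranks 1 to 5, 9 were higher and 1 lower in sir2∆, 1 higher and 1 lower in sir4∆, and 6 higher and 9 lower in sum1∆. That makes 33.3%, 6.67% and 50% called, against 5.62%, 1.35% and 10.6% of all tested genes in either direction. The 4 tested genes of the recurring runs all stand at these ranks, and their values are uncertain. Without the run genes, 7 genes were called at these ranks in sir2∆, 2 in sir4∆ and 11 in sum1∆. Tested genes at these ranks had passed the filter on low values, in part through the strains in which they were high. Their median log2 difference was 0.24 in sir2∆, -0.01 in sir4∆ and -0.45 in sum1∆. After quantile normalization it was 0.06 in sir2∆, 0.09 in sir4∆ and -0.67 in sum1∆. The medians of all genes were then -0.08, 0.01 and -0.10.

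At ranks 6 to 10, 54 genes were tested: 6 were higher in sir2∆, 2 higher and 4 lower in sir4∆, and 4 higher and 2 lower in sum1∆. At ranks 11 to 15, 55 genes were tested, with 7 higher in sir2∆ and with 7 higher and 3 lower in sum1∆. At ranks 16 to 20, 57 genes were tested, with 2 higher and 1 lower in sir2∆ and 3 in each direction in sum1∆. No gene at ranks 11 to 20 was called in sir4∆ by limma; at an unadjusted p under 0.05 with no limit on size, 18 were higher and 12 lower at ranks 11 to 15, and 12 higher and 19 lower at ranks 16 to 20. Among the 240 genes at ranks 21 to 40, 14 were higher in sir2∆, 1 higher and 3 lower in sir4∆, and 20 higher and 4 lower in sum1∆. The share called at ranks 6 to 10 was 11.1% in each mutant. In sir2∆ and sum1∆ it was 12.7% and 18.2% at ranks 11 to 15. It was 5.26% and 10.5% at ranks 16 to 20, and 5.83% and 10% at ranks 21 to 40. The last 2 ranges were close to the shares of all tested genes, 5.62% in sir2∆ and 10.6% in sum1∆. In sir4∆, 1.67% were called at ranks 21 to 40, against 1.35% of all.

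**Figure D2:**
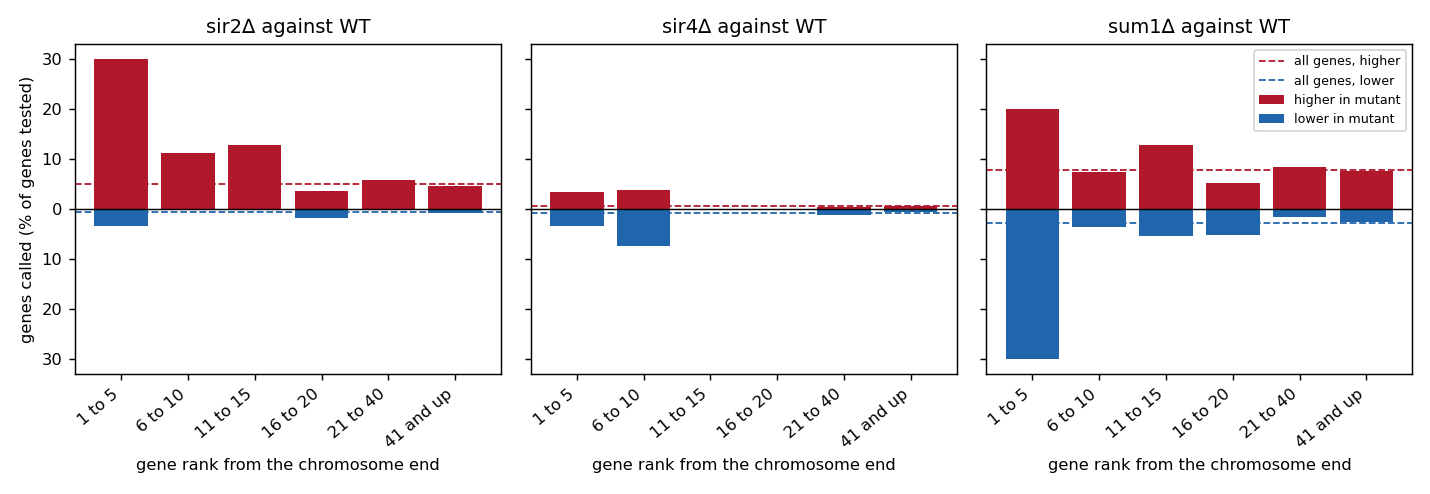
Percentage of tested genes called higher (bars upward) or lower (bars downward) in each mutant against WT, by range of ranks from the chromosome end. The dashed lines give the percentage among all 5022 tested genes. At ranks 1 to 5, 9 of 30 genes were higher in sir2∆ and 9 of 30 were lower in sum1∆.

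Calls were also counted apart for the ends with and without a run of shared coding lengths. At the 7 ends with a run (101 tested genes), 13 genes were higher and 0 lower in sir2∆, and 14 were higher and 7 lower in sum1∆. No gene there was called in sir4∆ by limma, where 29 were higher and 27 lower at an unadjusted p under 0.05; the same unadjusted count for lower genes in sir2∆ was 27. At the 5 ends without a run (95 tested genes), 11 were higher and 2 lower in sir2∆, 3 higher and 5 lower in sir4∆, and 6 higher and 10 lower in sum1∆. Every call in sir4∆ therefore came from B-high, C-high and E-high. Of all tested genes, 4.9% were higher and 0.717% lower in sir2∆, and 0.617% and 0.737% in sir4∆. In sum1∆ the shares were 7.73% and 2.87%. The difference between the 2 kinds of end was not tested.

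**Figure D3:**
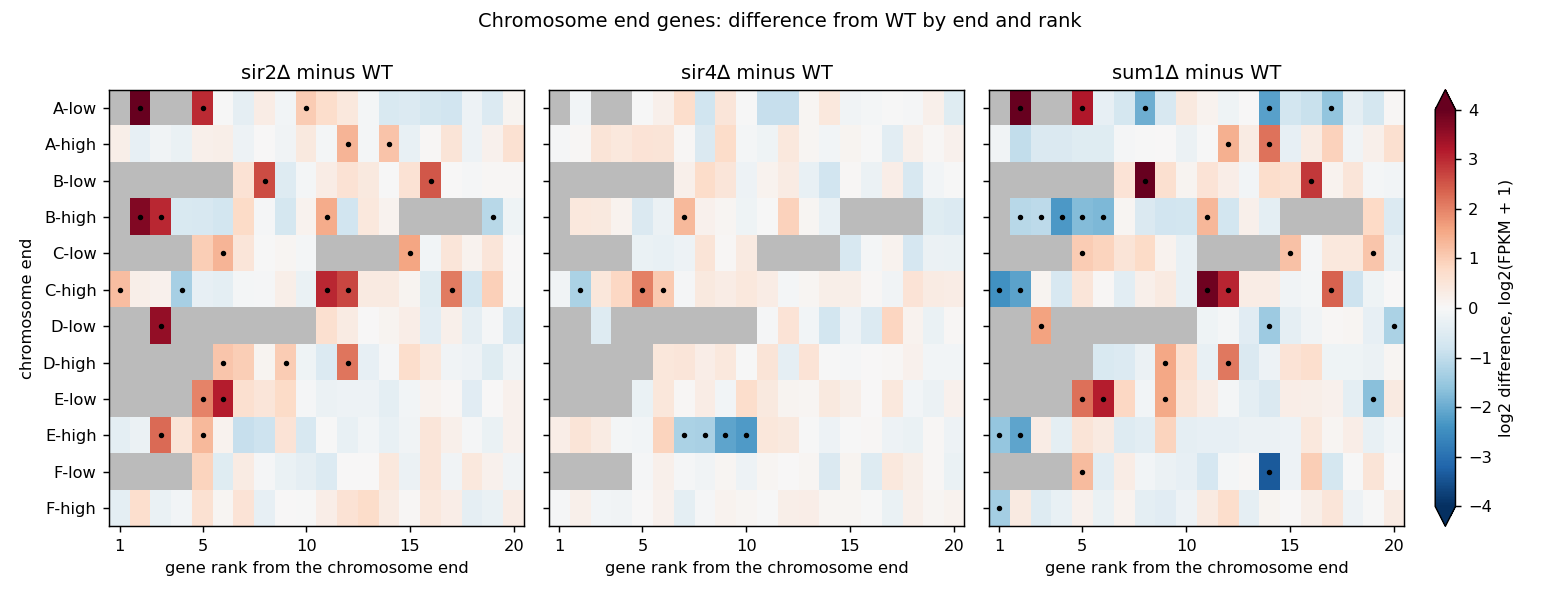
Log2 difference from WT of the 20 genes at each of the 12 ends (rows) by rank from the end (columns), for sir2∆, sir4∆ and sum1∆. Colour runs between -4 and 4 and larger differences take the end colour; grey cells were not tested and dots mark called genes. The lower genes of sum1∆ stand at ranks 1 to 6 of B-high, C-high, E-high and F-high and at single places elsewhere, and the 5 lower genes of sir4∆ at rank 2 of C-high and ranks 7 to 10 of E-high.

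At A-low, the largest change of any end gene was that of KLLA0A00132g. It had 46.2 and 43.9 FPKM in sir2∆, 0.162 and 0.0722 FPKM in sir4∆, 46.1 and 47.0 FPKM in sum1∆, and 0.253 and 0.133 FPKM in WT. Estimated reads were 657 and 1339 in sir2∆, 2 and 1 in sir4∆, 1439 and 1736 in sum1∆, and 7 and 2 in WT. The sir2∆ and sum1∆ libraries lay far above the others with no overlap, and its log2 differences were 5.27 in sir2∆ (limma adjusted p = 1.14e-08), -0.09 in sir4∆ (0.504) and 5.32 in sum1∆ (6.99e-09). KLLA0A00176g, 3 ranks further in, did likewise, with 30.5 and 35.8 FPKM in sir2∆, 2.75 and 3.71 FPKM in sir4∆, 38.1 and 38.9 FPKM in sum1∆, and 3.44 and 3.14 FPKM in WT. The log2 difference was 2.99 in sir2∆ and 3.21 in sum1∆.

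Further in at A-low, 3 genes were lower in sum1∆. GUT2, the mitochondrial glycerol-3-phosphate dehydrogenase, had 271 and 214 FPKM in sir2∆, 513 and 469.7 FPKM in sir4∆, 77.6 and 82.7 FPKM in sum1∆, and 356 and 377 FPKM in WT. Its log2 difference was -2.18 in sum1∆, and that of PCK1, the phosphoenolpyruvate carboxykinase of gluconeogenesis, was -1.59. The third was KLLA0A00242g (-1.94). SMC3, a cohesin subunit, was at the threshold in sir2∆, with a log2 difference of 1.00 that missed it in 4 alternatives (0.66 to 0.95), among them without WT replicate 2 and without sir2∆ replicate 2. The 14, 17 and 12 tested genes of this end that were not called differed by -0.76 to 0.71 in sir2∆, -0.92 to 0.70 in sir4∆ and -0.89 to 0.39 in sum1∆.

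A-high was expressed out to its last gene. KLLA0A12089g, at rank 1, had 522 and 485 FPKM in sir2∆, 395 and 433 FPKM in sir4∆, 379.8 and 392 FPKM in sum1∆, and 416 and 429.8 FPKM in WT, and was called in no mutant. The calls at this end were KLLA0A11792g, with log2 differences of 1.37 in sir2∆ and 1.41 in sum1∆, and KLLA0A11748g, with 1.14 in sir2∆ and 2.16 in sum1∆. The rise of KLLA0A11792g in sir2∆ was 0.88 after quantile normalization. The end also held KLLA0A11858g, the most abundant end gene, with group means of 21993 FPKM in sir2∆, 40251 FPKM in sir4∆, 24819 FPKM in sum1∆ and 24399 FPKM in WT; it was called in no mutant.

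At B-low, ranks 1 to 6 were listed at 0 in every library, and both called genes rose in sir2∆ and in sum1∆. KLLA0B00308g, at rank 8, had 15.1 and 13.9 FPKM in sir2∆, 3.45 and 2.99 FPKM in sir4∆, 45.4 and 50.4 FPKM in sum1∆, and 1.41 and 1.61 FPKM in WT. The sum1∆ libraries were the highest, the sir2∆ libraries were next, and no groups overlapped. Its log2 differences were 2.62 in sir2∆ (limma adjusted p = 4.62e-07), 0.75 in sir4∆ (0.0016) and 4.28 in sum1∆ (1.97e-08). KLLA0B00517g, at rank 16, had 162 and 176 FPKM in sir2∆, 26.8 and 23.7 FPKM in sir4∆, 213 and 223 FPKM in sum1∆, and 27.4 and 31.8 FPKM in WT.

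BIO5, BIO4 and BIO3, genes of biotin uptake and synthesis, lie together at ranks 10 to 12. BIO4 had 43.8 and 41.3 FPKM in sir2∆, 39.8 and 36.5 FPKM in sir4∆, 48.2 and 54.4 FPKM in sum1∆, and 34.2 and 35.4 FPKM in WT. Neither BIO4 nor its neighbours BIO5 and BIO3 were called in a mutant, and the 12 uncalled genes of B-low differed by -0.50 to 0.59 in sir2∆ and by -0.10 to 0.69 in sum1∆.

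At B-high, the outermost expressed genes moved in opposite directions in sir2∆ and sum1∆. KLLA0B14927g, at rank 2, had 33.3 and 30.8 FPKM in sir2∆, 2.61 and 2.09 FPKM in sir4∆, 0.272 and 0.0460 FPKM in sum1∆, and 1.96 and 1.13 FPKM in WT. The log2 difference was 3.72 in sir2∆ (limma adjusted p = 2.51e-06) and -1.12 in sum1∆ (0.00117). The fall rests on few reads, 5 and 1 in sum1∆ against 32 and 10 in WT. It was -0.34 with a pseudocount of 5, -0.89 without WT replicate 1 and -0.98 without sum1∆ replicate 2, none of which kept the call. KLLA0B14916g, the next gene, had 17.0 and 14.6 FPKM in sir2∆, 2.06 and 1.38 FPKM in sir4∆ and 1.22 and 0.911 FPKM in WT, and was listed at 0 in both sum1∆ libraries, so no fold is given for sum1∆. KLLA0B14949g, at rank 1, had 1 read in sir2∆ replicate 2 and none in the other libraries.

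The fall in sum1∆ went on inward, through a run of 5 genes at ranks 2 to 6. The outer genes of the run, KLLA0B14927g and KLLA0B14916g, were near the floor in WT already. Whether KLLA0B14916g keeps its sum1∆ call in the alternatives was not examined. KLLA0B14883g had 712 and 563 FPKM in sir2∆, 1128 and 1012 FPKM in sir4∆, 189 and 200 FPKM in sum1∆, and 942 and 981 FPKM in WT. Its log2 difference was -2.30 in sum1∆ (limma adjusted p = 7.46e-07) and -0.60 in sir2∆, which was not called. KLLA0B14861g and KLLA0B14839g, next to it, had log2 differences of -1.73 and -1.80 in sum1∆. KLLA0B14817g, at rank 7, was the gene of this end called in sir4∆ (1.28, adjusted p = 0.000579). KLLA0B14729g rose in sir2∆ (1.49) and sum1∆ (1.32).

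KLLA0B14498g, at rank 19 of B-high, was lower in sir2∆. It had 200.4 and 184 FPKM in sir2∆, 304 and 297 FPKM in sir4∆, 724 and 718 FPKM in sum1∆, and 471 and 373 FPKM in WT. Its log2 difference was -1.12 in sir2∆, but -0.95 and not called without WT replicate 1, and 0.78 and not called in sum1∆.

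At C-low, the largest difference of a tested gene from WT was that of CHA1 in sir2∆. CHA1, the serine and threonine deaminase, had 138 and 141 FPKM in sir2∆, 30.4 and 28.5 FPKM in sir4∆, 104 and 109 FPKM in sum1∆, and 44.8 and 48.0 FPKM in WT. It is the first gene inward of the genes listed at 0, and its log2 difference was 1.57 in sir2∆ (limma adjusted p = 3.57e-07), -0.64 in sir4∆ (0.000664, below the size needed for a call) and 1.18 in sum1∆ (1.43e-06). KLLA0C00198g was higher in sir2∆ (1.36). CSS2, the outermost expressed gene, was higher in sum1∆ (1.03) and just under the threshold in sir2∆ (0.98), and ADF1 was higher in sum1∆ (1.12).

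C-high held the most calls of the 12 ends, with 4 higher and 1 lower in sir2∆, 2 higher and 1 lower in sir4∆, and 3 higher and 2 lower in sum1∆. At B-high, with 15 tested genes, 26.7% were called in sir2∆, 6.67% in sir4∆ and 40% in sum1∆. C-high had all 20 genes tested, and the shares called were 25%, 15% and 25%, beside 5.62%, 1.35% and 10.6% of all tested genes. Its outermost gene, KLLA0C19547g, had 36.9 and 31.0 FPKM in sir2∆, 12.2 and 12.5 FPKM in sir4∆, 2.07 and 1.52 FPKM in sum1∆, and 14.6 and 13.0 FPKM in WT. All sir2∆ values lay above and all sum1∆ values below those of WT, with log2 differences of 1.23 (limma adjusted p = 0.000109) and -2.41 (1.57e-06). KLLA0C19437g, at rank 2, had 102 and 99.3 FPKM in sir2∆, 38.0 and 32.6 FPKM in sir4∆, 18.2 and 19.2 FPKM in sum1∆, and 86.9 and 85.1 FPKM in WT. It was the gene of this end that fell in sir4∆ (-1.27, adjusted p = 0.000403), and it fell further in sum1∆ (-2.15, 1.51e-07).

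URA1, the dihydroorotate dehydrogenase of pyrimidine synthesis at rank 4 of C-high, was lower in sir2∆. It had 276 and 231 FPKM in sir2∆, 1124 and 1121 FPKM in sir4∆, 387 and 426 FPKM in sum1∆, and 537 and 752 FPKM in WT. The sir2∆ libraries were the lowest (log2 difference -1.33, limma adjusted p = 0.000177) and the sir4∆ libraries the highest (0.82, not called). The 2 genes inward of it, KLLA0C19338g and KLLA0C19327g, formed the run that rose in sir4∆. KLLA0C19338g had 28.9 and 28.3 FPKM in sir2∆, 180.2 and 121 FPKM in sir4∆, 50.6 and 51.2 FPKM in sum1∆, and 27.9 and 46.4 FPKM in WT, a log2 difference of 2.01 in sir4∆ (adjusted p = 0.000932). The rise of KLLA0C19327g (1.04) was below the threshold in 4 alternatives (0.83 to 0.99), among them without WT replicate 1 and without sir4∆ replicate 1.

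Further in at C-high, a pair of neighbours rose in sir2∆ and sum1∆. KLLA0C19206g, at rank 11, had 40.3 and 40.3 FPKM in sir2∆, 4.49 and 6.23 FPKM in sir4∆, 76.2 and 74.1 FPKM in sum1∆, and 4.08 and 4.10 FPKM in WT. Its log2 differences were 3.02 in sir2∆ (limma adjusted p = 3.82e-07) and 3.90 in sum1∆ (5.99e-08). KLLA0C19184g, next to it, had differences of 2.68 in sir2∆ and 3.05 in sum1∆, and KLLA0C19041g, at rank 17, had 2.09 in sir2∆ and 2.37 in sum1∆. PUL3 and PUL4, genes of the pulcherrimin cluster, lie directly outward of KLLA0C19206g and were called in no mutant. Whether the unnamed pair belongs to the same cluster was not examined.

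**Figure D4:**
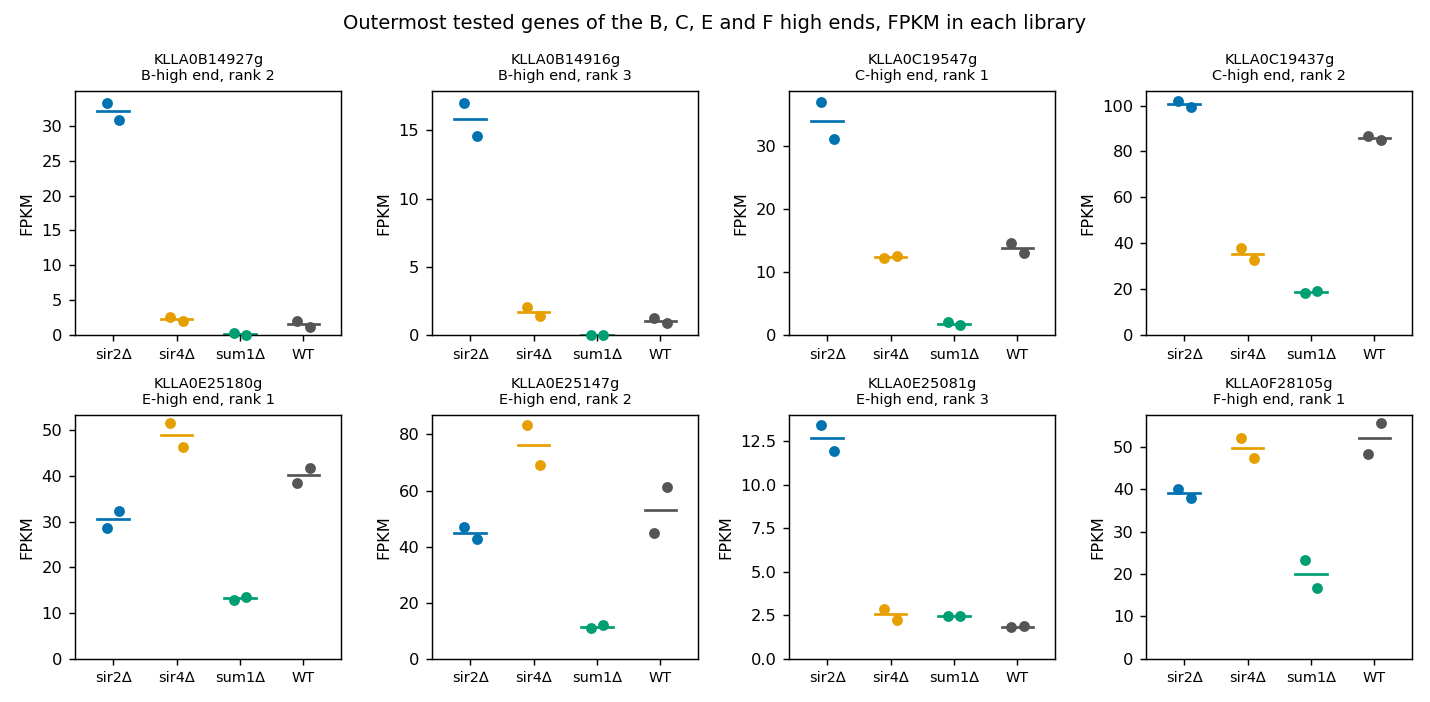
FPKM in each library of the outermost tested genes of B-high, C-high, E-high and F-high, each panel with its own axis from 0. Points are the libraries and bars the mean of the 2 libraries of a strain. KLLA0B14927g, KLLA0B14916g, KLLA0C19547g and KLLA0E25081g were called higher in sir2∆, and all of the genes shown except KLLA0E25081g were called lower in sum1∆.

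At D-low, 9 of the first 10 genes had no more than 1 read in any library. The exception was KLLA0D00187g, which had 258 and 254.5 FPKM in sir2∆, 13.1 and 16.9 FPKM in sir4∆, 65.9 and 68.6 FPKM in sum1∆, and 24.6 and 18.9 FPKM in WT. The sir2∆ libraries were the highest, the sum1∆ libraries came next, and the sir4∆ libraries lay below both WT libraries. The log2 differences were 3.51 in sir2∆ (limma adjusted p = 3.49e-07), -0.51 in sir4∆ (0.0197, not called) and 1.60 in sum1∆ (2.19e-05). With a coding length of 441 bases, its FPKM depends more on the length correction than that of longer genes. KLLA0D00396g and KLLA0D00528g were lower in sum1∆ (-1.44 and -1.26).

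At D-high, ranks 1 to 5 had at most 3 reads in any library. KLLA0D20031g, at rank 1, had 1 and 1 reads in sir2∆, 0 and 0 in sir4∆, 2 and 2 in sum1∆, and 0 and 0 in WT, too few for a comparison. KLLA0D19921g, at rank 12, had the largest change of this end, with 30.1 and 30.9 FPKM in sir2∆, 4.62 and 4.41 FPKM in sir4∆, 31.0 and 28.7 FPKM in sum1∆, and 6.18 and 6.11 FPKM in WT. Its log2 differences were 2.14 in sir2∆ (limma adjusted p = 2.28e-07) and 2.11 in sum1∆ (1.64e-07). KLLA0D19941g rose by 1.02 in sir2∆ and 1.54 in sum1∆, and KLLA0D19953g by 1.12 in sir2∆.

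At E-low, the rises in sir2∆ were those of 2 neighbours, KLLA0E00221g, the innermost gene of the recurring stretch, and ARR2. KLLA0E00221g had 36.0 and 33.2 FPKM in sir2∆, 5.72 and 7.25 FPKM in sir4∆, 38.3 and 43.3 FPKM in sum1∆, and 7.61 and 8.43 FPKM in WT. ARR2, an arsenate reductase, had 126 and 114 FPKM in sir2∆, 17.8 and 17.9 FPKM in sir4∆, 116 and 124 FPKM in sum1∆, and 13.9 and 11.5 FPKM in WT. Its log2 difference was 3.15 in sir2∆ (limma adjusted p = 7.85e-08), 0.47 in sir4∆ (0.00591, not called) and 3.15 in sum1∆ (5.09e-08). ARR1, its regulator in S. cerevisiae and the next gene, had 185 and 189 FPKM in sir2∆, 121 and 124 FPKM in sir4∆, 207 and 215 FPKM in sum1∆, and 118 and 119.7 FPKM in WT. Its differences of 0.65 in sir2∆ and 0.82 in sum1∆ stayed under the size needed for a call.

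GUT1, the glycerol kinase at rank 19 of E-low, was lower in sum1∆, with 136 and 113 FPKM in sir2∆, 101 and 103 FPKM in sir4∆, 36.8 and 37.3 FPKM in sum1∆, and 131 and 113 FPKM in WT (log2 difference -1.69, limma adjusted p = 2.56e-06). KLLA0E00309g, at rank 9, was higher in sum1∆ (1.51).

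**Figure D5:**
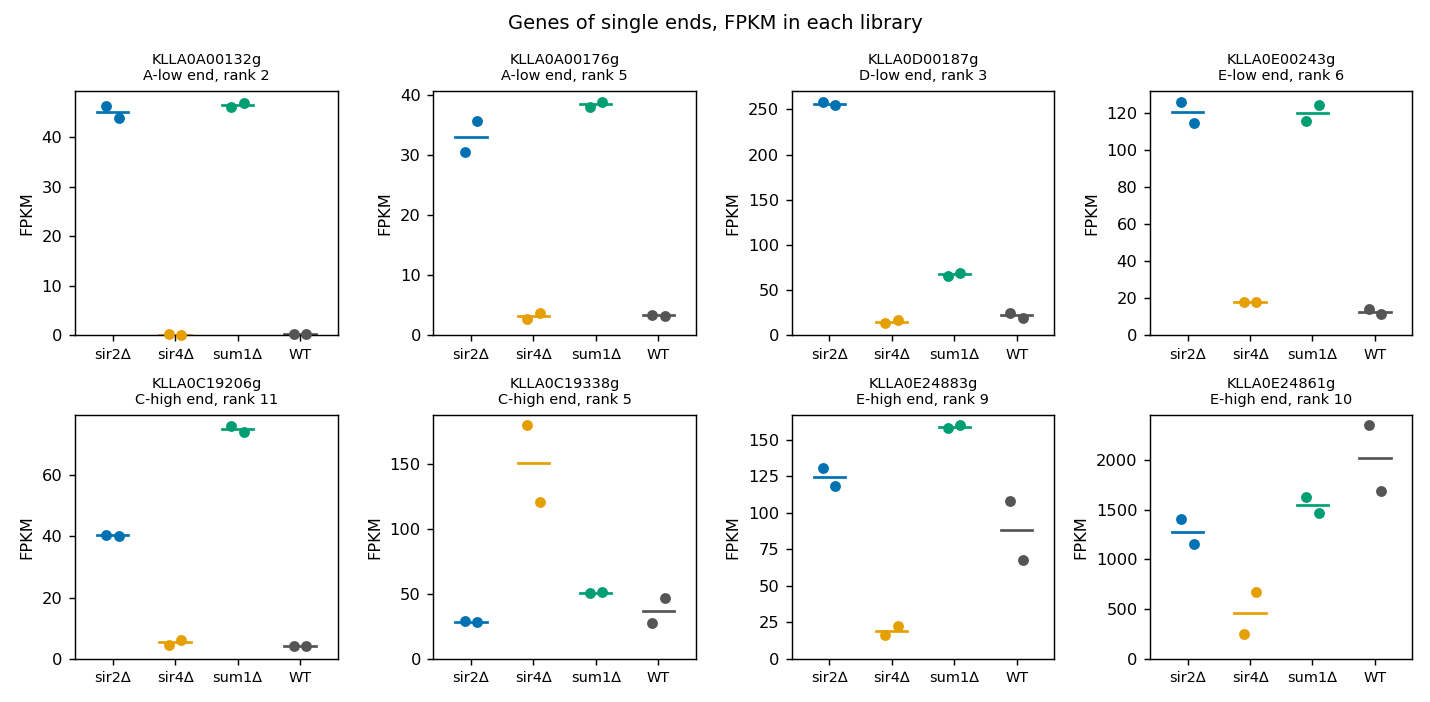
FPKM in each library of 8 genes at A-low, D-low, E-low, C-high and E-high (KLLA0E00243g is ARR2), each panel with its own axis from 0. Points are the libraries and bars the mean of the 2 libraries of a strain. The first 5 genes were higher in sir2∆ and sum1∆, KLLA0C19338g was higher in sir4∆, and KLLA0E24883g and KLLA0E24861g were lower in sir4∆.

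E-high showed 3 patterns in its first 10 genes. The outermost pair fell in sum1∆: KLLA0E25180g had 28.7 and 32.3 FPKM in sir2∆, 51.5 and 46.3 FPKM in sir4∆, 13.0 and 13.5 FPKM in sum1∆, and 38.6 and 41.8 FPKM in WT. KLLA0E25147g had 47.2 and 42.6 FPKM in sir2∆, 83.4 and 69.2 FPKM in sir4∆, 11.1 and 11.9 FPKM in sum1∆, and 44.8 and 61.3 FPKM in WT. Their log2 differences in sum1∆ were -1.53 (limma adjusted p = 1.98e-06) and -2.10 (7.53e-06). The gene at rank 3, KLLA0E25081g, was higher in sir2∆, with 13.5 and 11.97 FPKM in sir2∆, 2.85 and 2.26 FPKM in sir4∆, 2.46 and 2.45 FPKM in sum1∆, and 1.81 and 1.88 FPKM in WT. Its difference was 2.27 in sir2∆ (5.81e-06) and 0.28 in sum1∆ (0.0996). KLLA0E24993g, at rank 5, was also higher in sir2∆ (1.30).

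The 4 genes at ranks 7 to 10 of E-high, KLLA0E24927g to KLLA0E24861g, were the run that fell in sir4∆. KLLA0E24861g had 1404 and 1151 FPKM in sir2∆, 252 and 673 FPKM in sir4∆, 1631 and 1464 FPKM in sum1∆, and 2349.8 and 1684 FPKM in WT. The sir4∆ libraries were the lowest, with replicate 1 well below replicate 2, and the log2 difference was -2.27 with an SE of 0.38 (limma adjusted p = 0.00309). KLLA0E24883g had 130.4 and 119 FPKM in sir2∆, 16.4 and 22.2 FPKM in sir4∆, 158 and 160.1 FPKM in sum1∆, and 108 and 67.7 FPKM in WT, a difference of -2.11 in sir4∆ (0.000703). Those of KLLA0E24927g (-1.27) and KLLA0E24905g (-1.30) were -0.90 and -0.96, and no longer called, without sir4∆ replicate 1.

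F-low and F-high had the fewest calls of the 12 ends. In sir2∆ no gene of either end was called by limma; at an unadjusted p under 0.05, 6 were higher and 5 lower at F-low, and 10 were higher and 5 lower at F-high. In sir4∆ none was called either, with 3 higher and 4 lower at F-low and 5 higher and 3 lower at F-high on the same unadjusted count. At F-low, ALD4, a mitochondrial aldehyde dehydrogenase at rank 14, had the deepest fall of any end gene in sum1∆. It had 86.2 and 111 FPKM in sir2∆, 49.0 and 47.7 FPKM in sir4∆, 6.51 and 5.94 FPKM in sum1∆, and 75.0 and 70.9 FPKM in WT (log2 difference -3.36, limma adjusted p = 8.51e-08). KLLA0F00242g, the innermost gene of the recurring stretch, which shares its 1269-base length with KLLA0E00221g, was higher in sum1∆ (1.26) and at 0.89 in sir2∆. At F-high the outermost gene, KLLA0F28105g, was the single call, with 40.1 and 38.0 FPKM in sir2∆, 52.3 and 47.3 FPKM in sir4∆, 23.5 and 16.7 FPKM in sum1∆, and 48.4 and 55.7 FPKM in WT (-1.35 in sum1∆, 7.47e-05).

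The sir2∆ and sum1∆ strains were also compared directly, as sir2∆ minus sum1∆. Of the 196 tested end genes, 19 were higher and 4 lower in sir2∆ than in sum1∆, where 1.73% and 0.677% of all tested genes were (2.41% in either direction). At ranks 1 to 5, 10 of 30 tested genes were higher in sir2∆ and 0 lower (22 and 3 at an unadjusted p under 0.05 in limma), with a median log2 difference of 0.56, beside -0.03 over all genes. At ranks 6 to 20 the counts were 4 and 2, then 4 and 1, then 1 and 1 for each 5 ranks inward. Among the 240 genes at ranks 21 to 40, 4 were higher and 5 lower.

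The genes that separated the 2 strains were of different kinds. KLLA0B14927g (4.84, limma adjusted p = 2.53e-06) and KLLA0C19547g (3.65, 1.05e-06) were above WT in sir2∆ and below it in sum1∆. ALD4 (3.77, 4.9e-07), KLLA0C19437g (2.37, 7.57e-07) and KLLA0B14883g (1.70, 2.32e-05) were called lower in sum1∆ and were not called in sir2∆. KLLA0E25081g (1.99, 3.65e-05) was called higher in sir2∆ and not in sum1∆, and KLLA0D00187g (1.91, 4.26e-05) was higher in both mutants but more so in sir2∆. On the other side, KLLA0B14498g (-1.91), KLLA0B00308g (-1.66), AMF1 (-1.14) and KLLA0A11748g (-1.02) were lower in sir2∆ than in sum1∆. For KLLA0A00132g (-0.05, 0.744), ARR2 (0.00, 0.988) and KLLA0D19921g (0.03, 0.752) the difference between the 2 strains was small and not past the threshold.

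Genes for silencing and telomere proteins were read by symbol as the machinery known to act at chromosome ends. Of 41 symbols, 31 were found, all of them tested, and none belongs to the 240 end genes. In sum1∆, SUM1 itself was at 0 and TBF1, a protein that binds telomeric and subtelomeric DNA, was higher, with 84.8 and 85.2 FPKM in sum1∆, against 35.3 and 30.4 FPKM in WT (log2 difference 1.35). No other member of the list was called in sum1∆. In sir2∆ and sir4∆ limma called none; at an unadjusted p under 0.05, 14 were higher and 6 lower in sir2∆, and 5 were higher and 8 lower in sir4∆. The largest difference in sir2∆ was that of SUM1 (0.95, limma adjusted p = 6.88e-05), just under the size needed for a call. SUM1 had 56.6 and 59.8 FPKM in sir2∆, against 31.2 and 28.0 FPKM in WT. The median log2 difference of the list was 0.04 in sir2∆, -0.02 in sir4∆ and 0.06 in sum1∆.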

How the data were processed

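RNA abundance was measured in 8 libraries, 2 from each of 4 K. lactis strains. Per the labels' protocols, libraries came from total RNA with a TruSeq kit that does not keep strand and were read as single 50-base reads. The authors deposited FPKM values for 5076 genes per library. TopHat2 2.0.10 and Cuffnorm 2.2.1 are named in the submitters' processing notes; for the genome build and annotation, none is given in the sources used here. Without strand, reads of overlapping or antisense neighbours cannot be told apart, and copies of a gene may share reads.

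All 5076 identifiers matched the RefSeq table (assembly ASM251v1), used for symbols (3959 genes), coding lengths and gene order only; 97.8% of its lengths are multiples of 3. Library depth was inferred from the step that 1 read makes in FPKM, assuming fragments of at least 50 bases with a mean of 200 and an SD of 80 bases. Among genes longer than 600 coding bases with 100 or fewer reads, 95.7% to 100% per library gave whole reads to within 0.1. Read counts per gene are such estimates and entered no test.

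The 5022 genes averaging 1 FPKM or more across all libraries entered limma 3.58.1 (R 4.3.3), run on log2(FPKM + 1) and with its variance prior following intensity. All 4 groups shared the spread, with 4 residual and 4.02 prior degrees of freedom. Calls needed an absolute log2 difference of at least 1 and p below 0.05 after Benjamini-Hochberg adjustment. The comparisons described were each mutant against WT and sir2∆ against sum1∆; sir4∆ was also fitted against the other mutants, which is not described. The fit was tested on simulated data. The rest used Python 3.11.15 with pandas 2.3.3, numpy 2.4.6 and scipy 1.17.1.

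Named genes were, per mutant, the 10 largest called rises and falls; per end, the outermost gene and the largest called change in each mutant; called genes with a symbol; genes at 0 in a whole group and above 1 FPKM in another; and the first and last gene of runs of neighbours called alike. A few others were named after their values were seen, to show genes beside these or without a call. The members and lists were chosen with earlier results of these data known. Replicate numbers did not pair the libraries. Alternatives covered the pseudocount, filter, normalization, trend, fold threshold, genes per end, groups in the fit, replicate blocks and left-out libraries; a crossed block, a depth term and leaving out the recurring runs were chosen after seeing the data.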

Additional observations from a re-analysis of the deposited data

How the results depend on the processing

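Counts of called end genes moved most with the fold threshold. Without it, 74 were higher and 47 lower in sir2∆ (22 called at ranks 1 to 5), 48 and 37 in sir4∆ (11), 62 and 77 in sum1∆ (24), and 69 and 40 for sir2∆ minus sum1∆ (24). With 10 genes per end, 15 were higher and 1 lower in sir2∆, 10 higher and 11 lower in sum1∆, and 2 lower in sir2∆ than in sum1∆. With 30 genes per end, 31 were higher in sum1∆, 8 lower in sir4∆ and 7 lower in sir2∆ than in sum1∆; here the number of genes counted sets the change. After quantile normalization 5 were lower in sir2∆ and 27 in sum1∆; the cause was not tested.

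Leaving out 1 library at a time gave 22 to 26 higher and 1 to 3 lower in sir2∆ (10 to 11 called at ranks 1 to 5), 2 to 6 higher and 3 to 8 lower in sir4∆ (2 to 3), 20 to 23 higher and 16 to 17 lower in sum1∆ (14 to 15), and 17 to 20 higher and 3 to 4 lower in sir2∆ than in sum1∆ (9 to 11). Deviations of same-numbered libraries correlated between -0.25 and 0.03 over genes, so the numbers do not pair the libraries. A replicate block left the counts of higher and lower end genes at 24 and 2 in sir2∆, 3 and 5 in sir4∆, 20 and 17 in sum1∆, and 19 and 4 for sir2∆ minus sum1∆. The crossed pairing, chosen after seeing the data, gave the same counts. Both blocks are balanced over the groups and leave each log2 difference as it was. They could therefore move a call only through the p-value. A term for depth class, also chosen after seeing the data, gave 2 higher in sir4∆, 21 higher in sum1∆ and 17 higher in sir2∆ than in sum1∆. Depth class follows the groups in sir4∆ and sum1∆, whose libraries are all shallow or all deep. Without the genes of the recurring runs, 21 were higher in sir2∆ and 16 in sum1∆. At ranks 1 to 5 the genes called were then 7 in sir2∆ and 11 in sum1∆, against 10 and 15 with them. For sir2∆ minus sum1∆ they were 9, against 10. Of 55 named genes and comparisons, 48 kept the call in every alternative fit that held the gene, 7 lost it in at least 1, and 0 changed sign. Several of these fits left the log2 differences unchanged, so they could remove a call only through the p-value. They were the blocks, the changed filters, the fit without a trend and the fits of only the 2 groups compared. Some genes, such as KLLA0B14916g and KLLA0E25081g, did not pass the filter at a mean of 5 FPKM. The fold threshold, genes per end and leaving out the runs were varied for the counts only.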
